A study of Homo sapiens with 16 samples.

Results

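Sites that lay far from any protein-coding gene start were examined among the binding sites of HIF-1 and HIF-2, the transcription factors that are induced by hypoxia. Peaks of all 16 lists on chromosomes 1 to 22 and X were merged where they shared 1 bp or more, which gave 11662 sites. A site was called far distal when its centre was more than 50,000 bp from every start of a protein-coding transcript in GENCODE on GRCh37. This held for 2229 sites (19.1%), which carried 3610 of the 23366 peaks. Chromatin immunoprecipitation followed by sequencing (ChIP-seq) had been performed in A549 lung, HCT116 colorectal, PC3 prostate and T47D breast cancer cells, all kept in 0.5% oxygen for 16 hours. Antibody PM14 was used against HIF-1α and PM9 against HIF-2α, the oxygen-regulated subunits that are called isoforms here, with 2 replicate libraries for each of the 8 pairs of line and isoform. Each isoform thus had its own antibody throughout, and a difference between isoforms cannot be told apart from one between antibodies. Each line is an established cancer line grown in culture, and no normoxic library was analysed here. Nothing in the labels says whether replicates were separate cultures. P-values therefore measure the spread between these libraries, or the agreement between the 8 groups where replicates are averaged. The lists give no read totals, the depth is therefore unknown, and a missing peak does not show that a site was unbound.

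HIF-α subunits are made continuously and destroyed when oxygen is plentiful. In hypoxia they persist, pair with HIF-1β and bind a short core sequence, RCGTG (ACGTG or GCGTG), at promoters and at enhancers. Enhancers can act on genes over long distances and are often used in a single cell type, and distal elements commonly carry motifs of other factors, such as the AP-1 motif TGANTCA that is bound by pairs of FOS and JUN proteins.

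Stretches of 101 bp from the far distal sites that the results turn on are given first. Each is the plus strand of GRCh37, centred on the copy of RCGTG nearest to the median peak centre, with RCGTG on either strand in capitals (on the minus strand it reads CACGT or CACGC). The first 6 belong to sites with peaks in 11 to 16 libraries. The site nearest STMND1 had the highest mean rank for HIF-2α in T47D, that nearest CHSY1 had HIF-1α peaks alone, and that nearest NBPF6 had HIF-2α peaks alone.
ARRDC3, chr5:90576413-90576513: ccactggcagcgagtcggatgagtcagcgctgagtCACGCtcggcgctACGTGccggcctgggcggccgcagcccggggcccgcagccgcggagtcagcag
TMEM63B, chr6:44041176-44041276: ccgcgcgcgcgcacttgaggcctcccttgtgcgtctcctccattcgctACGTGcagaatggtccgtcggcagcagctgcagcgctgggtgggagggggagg
EGLN3, chr14:34529461-34529561: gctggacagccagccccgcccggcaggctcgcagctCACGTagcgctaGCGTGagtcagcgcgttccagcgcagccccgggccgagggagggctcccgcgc
PITRM1, chr10:3509782-3509882: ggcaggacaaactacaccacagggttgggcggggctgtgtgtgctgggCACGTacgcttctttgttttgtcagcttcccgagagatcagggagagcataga
AC092291.2, chr16:14458431-14458531: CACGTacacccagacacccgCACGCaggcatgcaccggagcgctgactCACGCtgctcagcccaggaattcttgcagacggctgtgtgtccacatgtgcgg
SLC45A1, chr1:8272263-8272363: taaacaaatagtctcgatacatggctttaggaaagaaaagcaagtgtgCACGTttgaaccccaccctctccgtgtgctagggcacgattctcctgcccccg
STMND1, chr6:16986279-16986379: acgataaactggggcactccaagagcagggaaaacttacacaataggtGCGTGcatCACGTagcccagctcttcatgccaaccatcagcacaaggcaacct
CHSY1, chr15:101629268-101629368: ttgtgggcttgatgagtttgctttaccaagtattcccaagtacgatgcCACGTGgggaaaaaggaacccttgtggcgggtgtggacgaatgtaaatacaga
NBPF6, chr1:109045644-109045744: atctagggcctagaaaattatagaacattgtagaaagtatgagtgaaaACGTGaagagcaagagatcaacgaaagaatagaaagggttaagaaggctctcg
The stretches nearest ARRDC3, EGLN3, AC092291.2 and STMND1 held more than 1 copy of RCGTG. In the stretch nearest CHSY1 the copies on opposite strands overlap, forming the palindrome CACGTG.

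Far distal sites were sparse relative to the sequence open to them. Bases more than 50,000 bp from every protein-coding start made up 52.8% of the sequenced genome, and held 1.49 sites per megabase against 7.04 sites per megabase elsewhere. Their median distance to the nearest start was 120381 bp, with quartiles of 75509 and 234178 bp. Of the 2229 sites, 40.2% lay within 100,000 bp, 36.1% between 100,000 and 250,000 bp, 13.9% between 250,000 and 500,000 bp, and 217 sites farther still. The nearest sites to the threshold were 50003 bp from PPARD on the far side and 49997 bp from MYRFL on the near side. Distance is only from starts of protein-coding transcripts. The start of a transcript of any type lay within 50,000 bp of 1767 of the far distal sites (79.3%). These starts include those of noncoding genes, pseudogenes and noncoding transcripts of protein-coding genes.

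The first question was whether the isoforms differed in how much of their binding was far distal. In A549, 17.4 and 15.3% of the peaks of the HIF-1α libraries were far distal, against 33.8 and 27.8% for HIF-2α. In HCT116 the values were 8.11 and 8.30% for HIF-1α and 23.2 and 24.9% for HIF-2α. In PC3 they were 11.9 and 9.91% for HIF-1α and 37.1 and 25.2% for HIF-2α. In T47D they were 10.8 and 12.7% for HIF-1α and 40.3 and 35.6% for HIF-2α. All 8 HIF-2α libraries (23.2 to 40.3%) were above all 8 HIF-1α libraries (8.11 to 17.4%). The mean difference was 19.2 percentage points, HIF-2α being higher in 4 of 4 lines (exact permutation of isoform labels within each line, two-sided, p = 0.00154, the smallest that these relabellings can give, adjusted p = 0.0127 over 13 tests). The distance of these peaks was known to differ between isoforms when the threshold was set, so this is no independent support. Without HCT116 it was 20.3 points (exact permutation p = 0.00926, the smallest possible with a cell line left out, adjusted p = 0.0508). Against the starts of genes of every type the difference was 4.33 points (exact permutation adjusted p = 0.0127).

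**Figure D1:**
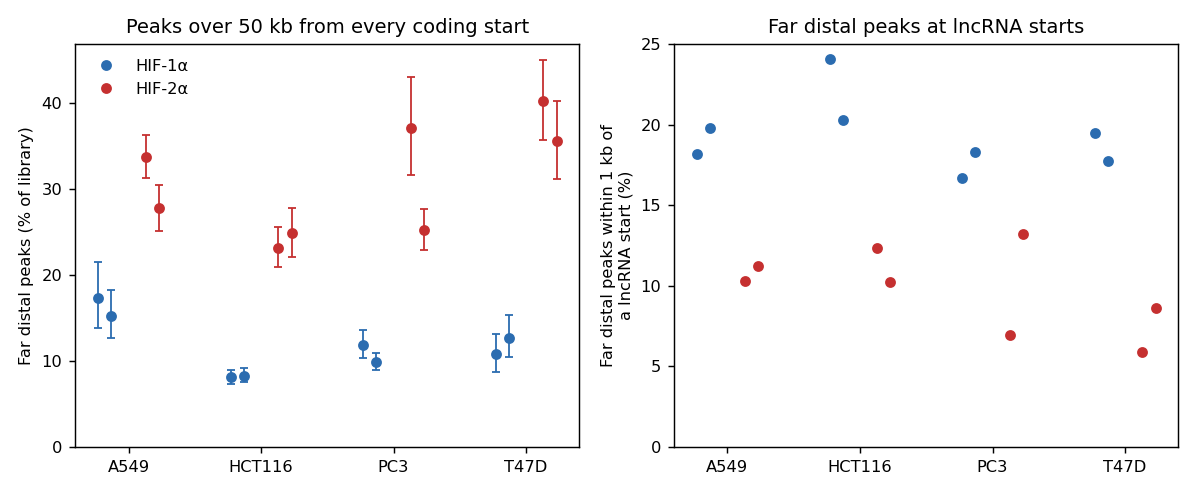
Left, percentage of each library's peaks that were far distal, with 95% Wilson intervals that cover counting error only; right, percentage of the far distal peaks whose site centre lay within 1000 bp of the start of a long noncoding RNA. Each point is 1 library (blue, HIF-1α; red, HIF-2α; 2 per group). HIF-2α libraries lay above all HIF-1α libraries on the left (23.2 to 40.3% against 8.11 to 17.4%) and below all of them on the right (5.88 to 13.2% against 16.7 to 24.1%).

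Counted as sites, 1144 far distal sites (51.3%) had peaks of HIF-2α libraries alone, where 25.2% of all sites did. HIF-1α libraries alone gave 818 (36.7%, against 61% of all sites), and 267 had peaks of both isoforms (11.98%, against 13.8%). HIF-2α-only sites lay at a median of 133548 bp, HIF-1α-only sites at 114296 bp and sites of both isoforms at 108422 bp. These counts pool libraries of unequal length, and lists ranged from 275 to 4505 peaks.

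Sites with peaks in both replicates of a group were counted in each cell line. In A549 there were 30 far distal sites of HIF-1α and 224 of HIF-2α, and 19 were shared. In HCT116 there were 150 and 80, with 38 shared. In PC3 there were 98 and 40, with 17 shared, and in T47D 32 and 47, with 15 shared. HIF-2α thus occupied 95.3% of these sites in A549 cells and 73.4% in T47D cells, but 41.7% in HCT116 cells and 33.1% in PC3 cells. Among sites within 50,000 bp of a start, the corresponding shares were 83.9, 28.1, 11.2 and 11.3%, lower in each of the 4 cell lines. Sites exclusive to HIF-2α had no HIF-1α peak in either library of the line. These were 173 of 235 far distal sites (A549), 30 of 192 (HCT116), 8 of 121 (PC3) and 25 of 64 (T47D). Among the other sites they were 347 of 652, 47 of 2426, 10 of 1000 and 52 of 470. Far distal sites exclusive to HIF-1α were 9 of 235 (A549), 97 of 192 (HCT116), 51 of 121 (PC3) and 13 of 64 (T47D). Among the other sites they were 91 of 652, 1864 of 2426, 665 of 1000 and 299 of 470. HIF-2α lists were longer than HIF-1α lists in A549 (1382 and 1056 peaks against 382 and 629). They were shorter in HCT116 (1264 and 901 against 4505 and 4465), PC3 and T47D. The part of list length in these counts was not tested.

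**Figure D2:**
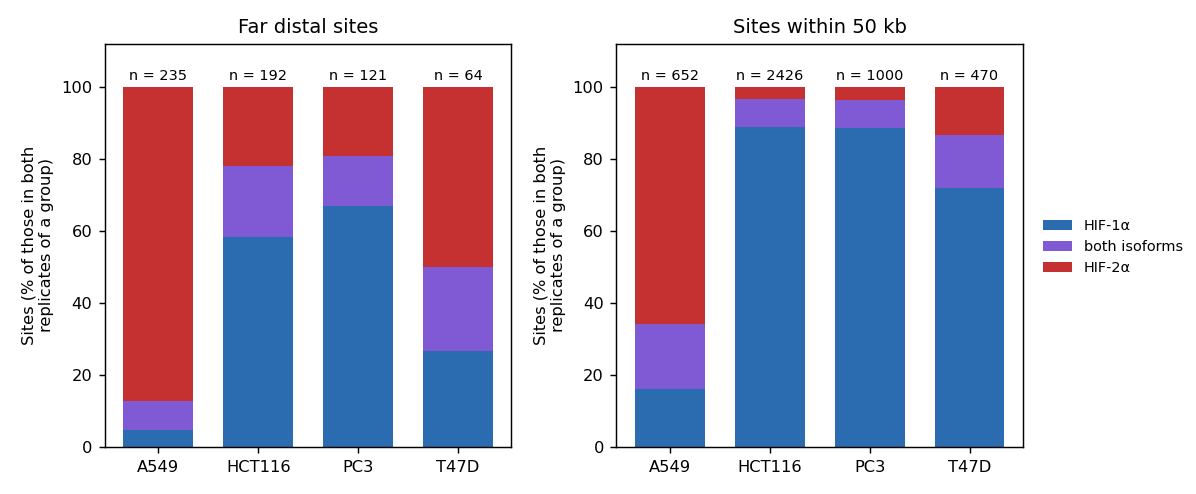
Percentage of sites with peaks in both replicates of HIF-1α (blue), of HIF-2α (red) or of both isoforms (purple), per cell line, among far distal sites (left) and sites within 50,000 bp of a protein-coding start (right); n is the number of sites. The red and purple parts together made up 95.3, 41.7, 33.1 and 73.4% of far distal sites in A549, HCT116, PC3 and T47D, and 83.9, 11.2, 11.3 and 28.1% of the other sites.

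Far distal sites were mostly found once. A peak in a single library was all that supported 1631 of them (73.2%, against 59.5% of all sites), and 473 (21.2%) had peaks in both replicates of a group, against 31.7% of all sites. To ask whether this held over the 8 groups, far distal peaks were set against the other peaks of the same library, with replicates averaged. Groups of the same cell line share its cells, so the 8 are not independent. A far distal peak overlapped a peak of the other replicate less often, by 13.5 percentage points on average over the 8 groups (8 of 8 in the same direction, two-sided exact sign-flip permutation p = 0.00781, the smallest that sign flips of 8 groups can give, adjusted p = 0.0127). In 2 libraries the order was opposite: A549 HIF-2α replicate 3, with 76.8% of far distal peaks recovered and 72.2% of the others, and PC3 HIF-2α replicate 2, with 12.3 and 11.7%. The highest-scoring peaks showed little of this: with a score at or above the median of all peaks the difference was -0.843 points (exact permutation adjusted p = 0.699).

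Far distal peaks were also ranked lower by score, which is the peak caller's own and was ranked within each library. Their mean percentile rank ran from 36.65 to 49.87 across the 16 libraries, and that of the other peaks from 50.05 to 55.5. The mean difference was -7.28 percentile points (8 of 8 groups, exact sign-flip permutation p = 0.00781, adjusted p = 0.0127). In peaks found in both replicates it was -1.05 points (exact permutation adjusted p = 0.492), and when each library was cut to its 272 best-scoring peaks the gap was -3.71 points (exact permutation adjusted p = 0.0609). T47D HIF-2α replicate 2, with 40.05 against 55.5, and T47D HIF-1α replicate 2, with 36.65 against 51.9, showed the widest gaps. In A549 HIF-2α replicate 3 the ranks were 49.87 and 50.05. Far distal peaks were present above the 90th percentile of all 16 lists, where they numbered between 3 and 40. These were 3.33 to 10.96% of a library's far distal peaks, against 9.91 to 13.89% of its other peaks. The T47D libraries gave 3.33 to 4.64% against 10.75 to 13.89%. The far distal share was higher only in HCT116 HIF-1α replicate 2 (10.96 against 9.92%) and HCT116 HIF-2α replicate 3 (10.27 against 9.91%). The highest far distal peak stood at the 99.9th percentile of A549 HIF-2α replicate 2. Whether the gap in rank differed between isoforms was not resolved (2.50 points, exact permutation p = 0.231, adjusted p = 0.251). The median width of far distal peaks was lower by 171 bp on average (8 of 8 groups, exact permutation adjusted p = 0.0127).

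Sharing between cell lines was lower still. Of the far distal sites, 1966 (88.2%) had peaks in 1 cell line, against 76.5% of all sites, 182 in 2, 65 in 3 and 16 (0.718%) in all 4, against 2.76% of all sites. HCT116 alone held 756, PC3 alone 455, A549 alone 418 and T47D alone 337. Within libraries, a far distal peak overlapped a peak of the same isoform in another cell line less often than other peaks did, by 24.7 percentage points (8 of 8 groups, exact sign-flip permutation p = 0.00781, adjusted p = 0.0127). The share of far distal peaks was lowest in T47D HIF-2α, at 7.65 and 11.3%, where 38.5 and 43.2% of other peaks were shared. PC3 HIF-2α replicate 2 showed the opposite order, with 40.6% of far distal and 39.8% of other peaks. Peaks found in both replicates gave a difference of -17.0 points (exact permutation adjusted p = 0.0312). Cut to 272 peaks per library by score, the lists gave -15.9 points, which did not pass (exact permutation adjusted p = 0.0508).

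**Figure D3:**
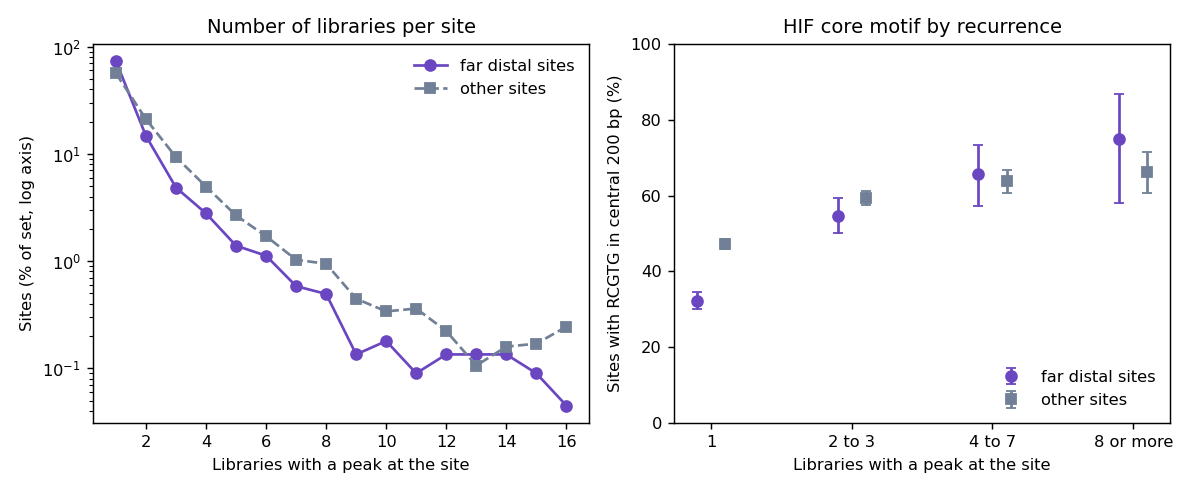
Left, percentage of far distal sites (purple circles) and other sites (grey squares) by the number of libraries with a peak, on a log axis; right, percentage with RCGTG in the central 200 bp, with 95% Wilson intervals over sites. Sites in a single library made up 73.2% of far distal and 56.3% of other sites; RCGTG was in 32.25% of far distal sites found in 1 library and in 75% of those found in 8 or more.

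The core motif was searched in the central 200 bp of each peak, or of the merged site where sites are counted, on both strands. It occurred in 35.9 to 62.5% of the far distal peaks of a library and in 51.0 to 72.9% of its other peaks, whereas 13.55% of all 200 bp windows of the genome more than 50,000 bp from protein-coding starts held it. Far distal peaks carried it less often by 14.0 percentage points (8 of 8 groups, exact sign-flip permutation p = 0.00781, adjusted p = 0.0127). Recurrence moved with this value. Among far distal sites RCGTG was in 32.25% of those in 1 library (95% Wilson interval 30.03 to 34.6%), 54.7% of those in 2 to 3 (50.01 to 59.3%), 65.65% of those in 4 to 7 (57.2 to 73.2%) and 75% of the 32 sites in 8 or more, where 2.69% of all sites fell (57.9 to 86.75%). The other sites gave 47.3, 59.3, 63.8 and 66.3%, so that the intervals overlapped from 2 libraries upward. In peaks found in both replicates the difference between far distal and other peaks was -3.35 points (exact permutation adjusted p = 0.115). In all, 874 far distal sites (39.2%) held RCGTG, against 50.5% of all sites.

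Between isoforms, RCGTG was in 38.9 to 62.5% of far distal HIF-1α peaks and in 35.9 to 57.7% of far distal HIF-2α peaks of a library. The ranges overlapped, and the mean difference of -8.09 points (HIF-2α minus HIF-1α, 4 of 4 cell lines, exact permutation p = 0.0278, adjusted p = 0.0401) was not stable. It was lost when any 1 of 9 libraries was left out, of which T47D HIF-1α replicate 1, which held RCGTG in 59.8% against 38.9% in replicate 2, moved it most (-5.48, exact permutation adjusted p = 0.0985). It was also lost with the replicate number as a block (exact permutation adjusted p = 0.0813) and in peaks with a score at or above the median of all peaks (-2.14 points, exact permutation adjusted p = 0.699). It passed at -17.8 points in lists cut to 272 peaks by score (exact permutation adjusted p = 0.0134) and at -12.3 points in whole peaks (exact permutation adjusted p = 0.02675).

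The AP-1 motif showed the reverse order. TGANTCA was in the central 200 bp of 368 far distal sites (16.5%), against 8.95% of all sites and 6.60% of genome windows at the same distance. Far distal peaks held it more often than the other peaks of their library, by 7.59 percentage points (8 of 8 groups, exact sign-flip permutation p = 0.00781, adjusted p = 0.0127), and in PC3 HIF-2α replicate 1 alone the order was opposite, at 16.8 against 17.5%. Cell lines differed widely. In A549 the motif was in 38.1 and 31.7% of far distal HIF-2α peaks and in 13.6 and 12.5% of far distal HIF-1α peaks. In T47D it was in 11.2 and 9.27% for HIF-2α and in 6.10 and 4.44% for HIF-1α, the last pair below the share of genome windows. HCT116 gave 15.6 and 10.3% for HIF-1α and 15.4 and 18.8% for HIF-2α. In PC3 the replicates stood apart with both antibodies, at 15.6 and 16.8% in replicate 1 and 29.3 and 33.2% in replicate 2, and replicate 2 had the longer lists. The difference between isoforms, 8.39 points higher for HIF-2α in 4 of 4 cell lines, did not pass the threshold (exact permutation p = 0.0432, adjusted p = 0.0562). Among the alternatives, it passed in peaks found in both replicates (5.91 points, exact permutation adjusted p = 0.04497). It also passed with the replicate number as a block (exact permutation adjusted p = 0.0226) and in some others given below. Under 17 of 26 alternatives the difference did not pass. Without A549 it was 3.90 points (exact permutation adjusted p = 0.337), and in whole peaks 4.73 points (exact permutation adjusted p = 0.441).

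**Figure D4:**
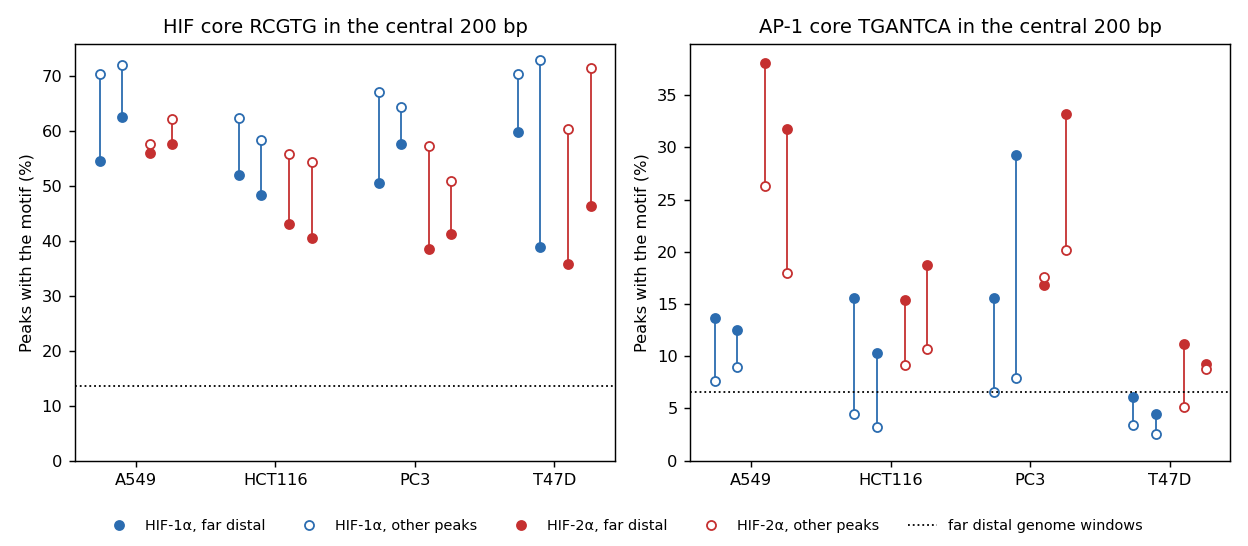
Percentage of far distal peaks (filled) and other peaks (open) of each library with RCGTG (left) or TGANTCA (right) in the central 200 bp; a line joins the values of 1 library, and the dotted line is the share of 200 bp genome windows over 50,000 bp from protein-coding starts (13.55 and 6.60%). RCGTG was lower in far distal peaks of every library, and TGANTCA was higher in all but PC3 HIF-2α replicate 1.

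Base composition moved with these motifs. The central 200 bp of far distal peaks held 3.85 to 10.5 CpG dinucleotides per library on average and those of other peaks 6.98 to 19.3, a difference of -7.14 (8 of 8 groups, exact sign-flip permutation p = 0.00781, adjusted p = 0.0127). Far distal peaks of HCT116 HIF-1α had the most, 9.93 and 10.5, and T47D HIF-2α replicate 1 the fewest, 3.85. The part of CpG content in the difference in RCGTG, which itself contains a CpG, was not tested. CATTCC, the core bound by TEAD factors, was in 8.54 to 24.6% of far distal and 5.80 to 23.1% of other peaks of a library, against 10.8% of genome windows. The forkhead core TGTTTAC was in 0 to 7.29% of far distal peaks of a library, against 3.35% of windows, and the GATA core AGATAA, at 3.24 to 14.99% across libraries, was below the 16.3% of windows in every library.

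Next, the place of the sites relative to genes was examined. The centre of 612 far distal sites (27.5%, against 63.4% of all sites) lay within the body of a protein-coding gene, and 28.65% of the genome's bases at that distance do. Of these, 584 were intronic and 28 lay in an exon of a protein-coding transcript (1.26%, against 25.4% of all sites). The other 1617 sites lay outside protein-coding genes. Not all of them were intergenic, since 1247 of the 2229 sites (55.9%) lay within a gene of some type. Shares within protein-coding genes were close in the isoform classes, at 28.2% of HIF-1α-only, 27.6% of HIF-2α-only and 24.3% of sites of both isoforms. Per library the share within genes was 15.85 to 28.4% for HIF-1α and 23.4 to 28.9% for HIF-2α, a difference of 2.93 points that did not pass the threshold (exact permutation p = 0.111, adjusted p = 0.131). It did pass when only peaks found in both replicates were used (9.70 points higher for HIF-2α, exact permutation adjusted p = 0.00926), and counted over genes of all types it turned to -1.74 points (exact permutation adjusted p = 0.438).

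A site far from protein-coding starts can still lie at the start of a noncoding gene. The start of a long noncoding RNA (lncRNA) lay within 1000 bp of 218 far distal sites (9.78%, against 15.6% of all sites). With HIF-1α in A549, 18.2 and 19.8% of far distal peaks lay at such sites, as did 24.1 and 20.3% for HCT116, 16.7 and 18.3% for PC3 and 19.5 and 17.8% for T47D. In the HIF-2α libraries the values were 10.3 and 11.3% for A549, 12.3 and 10.3% for HCT116, 6.93 and 13.2% for PC3, then 5.88 and 8.61% for T47D. All HIF-1α libraries were above all HIF-2α libraries. The mean difference was -9.48 points for HIF-2α minus HIF-1α in 4 of 4 cell lines (exact permutation p = 0.00154, adjusted p = 0.0108 with the other 13 tests). This measure was chosen after the data were seen. The share also moved with recurrence: lncRNA starts were at 7.42% of far distal sites in 1 library, 12.9% of those in 2 to 3, 22.1% of those in 4 to 7 and 12 of the 32 in 8 or more (37.5%, 95% Wilson interval 22.9 to 54.75%). Recurrence was not split in this way for the other sites, so the rise cannot be called particular to far distal sites.

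The 10 far distal sites with peaks in the most libraries were described one by one. The only one in all 16 libraries, on chromosome 5 from 90575464 to 90577982, was 102411 bp downstream of the start of ARRDC3, which encodes an arrestin-domain protein. It overlapped the lncRNA gene LUCAT1, and its centre was 236 bp from the start of a neighbouring lncRNA. In A549 its scores were 274.5 and 433 for HIF-1α and 2480 and 1843 for HIF-2α. HCT116 gave 898 and 637 for HIF-1α and 768 and 376 for HIF-2α, and PC3 gave 574 and 987 for HIF-1α and 352 and 788 for HIF-2α. T47D gave 129 and 152 for HIF-1α and 87.0 and 68.4 for HIF-2α. By percentile rank averaged over both replicates it stood first among replicated far distal sites of HIF-2α in A549 and in PC3, although PC3 HIF-2α replicate 2 held a far distal peak with a higher score, 894 against 788. Its rank was lowest in T47D, between the 48.5th and 78.4th percentile. It held 8 copies of RCGTG and 4 of TGANTCA.

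The site nearest NDRG1, a gene induced by hypoxia and other stress, lay on chromosome 8 from 134386173 to 134389925, 73784 bp upstream, and had a peak in every library but T47D HIF-2α replicate 2. It overlapped no annotated gene, held 15 copies of RCGTG and had the highest mean percentile of the 10, 93.1. Scores reached 1710 in HCT116 HIF-1α replicate 2 and 1640 in PC3 HIF-1α replicate 2. NDRG1 is on the study's list of conserved targets, and it had other far distal sites at 54212 and 80105 bp with peaks in 3 libraries each.

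The site nearest TMEM63B, a gene for a mechanosensitive ion channel, lay on chromosome 6 from 44039988 to 44042331, 53491 bp upstream, with its centre 490 bp from a lncRNA start, and it overlapped the lncRNA gene SCIRT. It was present in all libraries but PC3 HIF-2α replicate 1 and had the highest mean rank over both replicates among far distal sites of HIF-1α in A549, HCT116 and T47D. In single libraries others stood above it, such as the TPTE site in A549 HIF-1α replicate 2 (96.7 against 91.7) and the NDRG1 site in HCT116 HIF-1α replicate 2 (99.5 against 99.2). In T47D its percentile ranks were 95.3 and 96.8 for HIF-1α and 58.2 and 86.2 for HIF-2α, and in A549 they were 91.7 and 95.5 against 64.65 and 79.3. In both lines the HIF-1α libraries ranked it higher, whereas the ARRDC3 site ranked higher with HIF-2α in A549, at 99.9 and 99.8 against 92.0 and 93.4. The start of VEGFA, the angiogenic growth factor gene, was 299070 bp away (named here after its value was seen).

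EGLN3 encodes an oxygen-sensing prolyl hydroxylase that marks HIF-α for destruction. Its most recurrent far distal site, on chromosome 14 from 34528488 to 34530386, was 109150 bp upstream of the nearest protein-coding start, within the annotated EGLN3 gene body. All 8 HIF-1α libraries and 6 HIF-2α libraries had a peak there, with scores from 75.8 in T47D HIF-2α replicate 1 to 1126 in HCT116 HIF-1α replicate 2, and it held 12 copies of RCGTG. The site nearest AC092291.2, in LINC02130 on chromosome 16 from 14457763 to 14460097, had peaks in all 12 libraries of A549, HCT116 and PC3 and in 0 of the 4 T47D libraries, with scores of 1980 and 1654 for HIF-2α in A549.

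The rest of the 10 were nearest TPTE, NTMT1, AOX1, ZFAT and PITRM1. The TPTE site, on chromosome 21 from 9825438 to 9827181, overlapped the microRNA genes MIR3648 and MIR3687, was 1164564 bp from a protein-coding start, and had a peak in all libraries but the pair of A549 HIF-2α. The NTMT1 site (chromosome 9, 132243204 to 132246491) was 31 bp from a lncRNA start and overlapped LINC00963, and its highest score was 643 in A549 HIF-2α replicate 2. The ZFAT site (chromosome 8, 135843356 to 135845757) and the PITRM1 site (chromosome 10, 3509154 to 3510481) were 300 and 78 bp from lncRNA starts. The AOX1 site (chromosome 2, 201577417 to 201578750) was just past the threshold at 50454 bp.

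**Figure D5:**
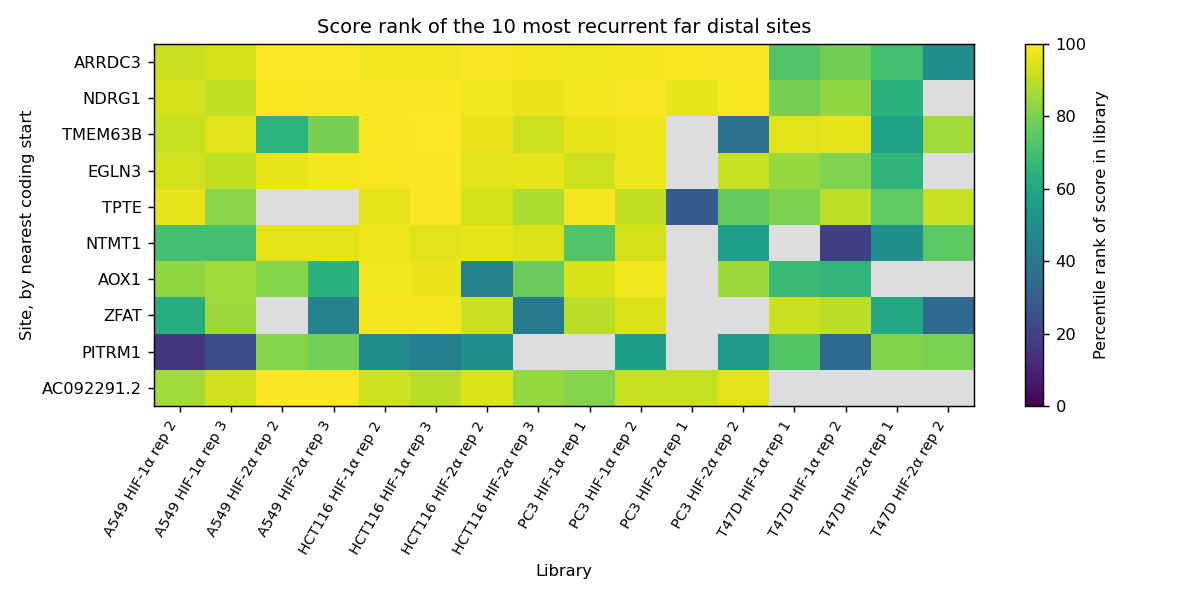
Percentile rank of score (colour, 0 to 100 within a library) of the 10 far distal sites with peaks in the most libraries (rows, named by the nearest protein-coding start) in each of the 16 libraries (columns); grey marks no peak. The ARRDC3 site had a peak in 16 libraries, the NDRG1 and TMEM63B sites in 15, and the AC092291.2 site in 0 of the 4 T47D libraries.

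By mean percentile rank over the replicates, among sites with a peak in both, the first sites of the 8 groups were 5 different sites. They were not always first in each replicate, as in PC3 HIF-1α replicate 1, where the TPTE site scored 793 and the NDRG1 site 610. Beside the ARRDC3, TMEM63B and NDRG1 sites, HIF-2α in HCT116 had the site nearest SLC45A1, in LINC01714 on chromosome 1 from 8271555 to 8274088, which had peaks in 11 libraries, none of them from T47D, and reached a score of 2236 in A549 HIF-2α replicate 2. HIF-2α in T47D had the site nearest STMND1 on chromosome 6 from 16985703 to 16986890, whose peaks were confined to the 4 T47D libraries and reached a score of 504.

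Sites with peaks of a single isoform were found in fewer libraries. The most recurrent with HIF-1α alone was nearest SERBP1 on chromosome 1 (67965578 to 67966895), with peaks in 7 HIF-1α libraries of 4 cell lines and 0 HIF-2α libraries, at a mean percentile of 72.1. Those nearest CHD6 and CHSY1 followed, with 6 libraries of 3 cell lines each. With HIF-2α alone, the site nearest GADD45B on chromosome 19 (2540279 to 2541513), in an intron of GNG7, had peaks in 6 libraries of 3 cell lines at a mean percentile of 91.9. The site nearest KRBOX4 on chromosome X, 99 bp from the start of LINC01186, had 6, and that nearest NBPF6 had 5. The farthest of the replicated sites was 1767779 bp from BRINP3, with HIF-2α peaks in 3 libraries, and TMEM132C was 1206541 bp from a site with HIF-1α peaks in 4 libraries, 64 bp from the start of LINC02405.

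Genes of the HIF pathway were then looked up by nearest start. Of 47 annotated genes of the study's 48 conserved targets, a list chosen partly on these libraries, 5 were nearest to a far distal site (10.6%) and 3 to a replicated one (6.38%). Of 30 other known targets and pathway genes the numbers were 9 (30%) and 7 (23.3%). This list was also chosen with earlier results of these data known, so its shares are no independent support, and no test was made. Over all 19748 protein-coding genes they were 1451 (7.35%) and 396 (2.01%). From the conserved list, BNIP3L, a mitophagy receptor, had a site within its gene body, 61155 bp from its start, with peaks in 8 libraries, and STC2, a secreted glycoprotein, had one 126545 bp upstream with peaks in 8. KDM4B, a histone demethylase, had 4 sites in 1 or 2 libraries each, and GBE1, the glycogen branching enzyme, had 1.

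Among the other targets, PFKFB3, which makes the activator of phosphofructokinase, had a site on chromosome 10 (6340746 to 6342151), 75320 bp downstream, with peaks in the 12 libraries of A549, HCT116 and PC3 and in 6 of the 8 groups in both replicates. IGFBP3, which binds insulin-like growth factors, had one 56610 bp upstream with peaks in 10 libraries, and another 223725 bp upstream with peaks in 4 HIF-2α libraries and no copy of RCGTG. CXCR4, a chemokine receptor, had one 127020 bp upstream with peaks in 5 libraries at a mean percentile of 88.55. EPAS1, which encodes HIF-2α itself, had one 63522 bp upstream with peaks in 2 HIF-2α libraries and scores of at least 188. CCND1, encoding cyclin D1, had one 143719 bp upstream with peaks in 3 HIF-2α libraries, also without RCGTG, and another 65324 bp upstream with a peak in 1 HIF-1α library and 2 copies of RCGTG. EDN1, encoding the vasoconstrictor endothelin, had 4 sites, all with HIF-2α peaks alone. VEGFA and INSIG2 had 1 site each, with a peak in 1 library.

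Finally, clustering was examined by chaining far distal sites whose centres were at most 50,000 bp apart. Of the 2229 sites, 1597 (71.65%) stood alone and 632 fell into 255 clusters, of which 183 were pairs and 11 held 5 or more sites. The other sites were not chained in this way. The shares here therefore do not show whether clustering is particular to far distal sites. Sites in clusters made up 43.45% of sites of both isoforms, 27.1% of HIF-2α-only and 25.2% of HIF-1α-only sites, and 41.65% of replicated sites against 24.0% of those in 1 library. By cell line the share was highest in A549 (37.5%) and lowest in T47D (22.1%). Between isoforms, 27.8 to 38.5% of far distal HIF-1α peaks and 28.2 to 41.8% of far distal HIF-2α peaks of a library were clustered, and the difference of -0.137 points was within the spread between libraries (exact permutation p = 0.934, adjusted p = 0.934). With the shorter gap tried as an alternative it was -1.83 points (exact permutation adjusted p = 0.0113). Cut to 272 peaks per library by score, the lists gave -10.7 points, which passed (exact permutation adjusted p = 0.0145), and with a score at or above the median it turned to 5.56 points (exact permutation adjusted p = 0.265).

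The largest cluster held 11 sites over 185324 bp on chromosome 16 (88181157 to 88366480), nearest ZNF469 or BANP. Its peaks came from 9 libraries of A549, HCT116 and PC3 and 0 of T47D, and 5 of its sites were found in 1 library. The next, of 7 sites over 138417 bp on chromosome 16 (85355403 to 85493819), lay within the annotated body of GSE1 and drew on 11 libraries. The third held 6 sites over 75905 bp on chromosome 6 (43969437 to 44045341) and included the TMEM63B site, and 4 of its 6 sites were replicated. Another 6 sites spanned 83849 bp on chromosome 8 (128805937 to 128889785), 56655 to 139166 bp from MYC. By chromosome, density ran from 0.272 far distal sites per megabase on X to 3.70 on chromosome 17. Chromosome 8 held the most sites, 224, or 2.60 per megabase, and it held between 8.57 and 12.6% of the far distal sites of each cell line.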

How the data were processed

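Binding of HIF-1α and HIF-2α had been measured by ChIP-seq in 16 libraries. Per the labels and the study's methods, the authors trimmed reads with Trim Galore 0.3.3, aligned them to GRCh37 with BWA 0.7.5a-r405, removed reads of low mapping quality, blacklisted regions and duplicates (SAMtools 0.1.19, bedtools 2.17.0, Picard 2.0.1) and called peaks per library with MACS, whose version and control library are not given in the sources used here. The deposited lists hold coordinates and a peak score whose scale is not stated, so scores were ranked within libraries. The lowest score was 50. The study's later filters (a second peak caller, read counts, HIF-1β) were not applied.

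Of 23398 peaks, 32 lay outside chromosomes 1 to 22 and X and were left out. Sites, distances (GENCODE release 44 lifted to GRCh37, 89007 protein-coding transcript starts) and motifs (both strands) were computed with Python 3.11.15, numpy 2.4.6, scipy 1.17.1 and pysam 0.24.0, and figures with matplotlib 3.10.9. Isoforms were compared by a two-sided exact permutation test within cell lines, and far distal with other peaks by two-sided exact sign flips of 8 group means. P-values were adjusted by Benjamini-Hochberg over 13 tests, with a threshold of 0.05, and the tests were checked on simulated data. A planned comparison of repeat-masked sequence was not run, since the reference holds 0 lower-case bases.

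The sites and gene lists were chosen with earlier results of these data known. Named sites were the 10 in the most libraries, the replicated site with the highest mean percentile rank over replicates per group, the 3 most recurrent per isoform alone, the 3 largest clusters and the 5 farthest replicated sites, beside genes of both lists. Of the farthest, 2 are described, and the cluster nearest MYC was added after its values were seen. The lncRNA and combined motif measures were also added after the data were seen. Alternatives covered thresholds, gene types, overlap, score, motif window, cluster gap, each replicate and each cell line.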

Additional observations from a re-analysis of the deposited data

Results flagged for a closer look

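The share of far distal peaks within protein-coding genes moved in opposite directions between cell lines. HIF-2α minus HIF-1α was 7.30 percentage points in A549 and 6.085 in T47D, where both HIF-2α libraries were above both HIF-1α libraries, and -2.84 points in PC3, where both were below. Whether this difference between cell lines exceeds the spread between libraries was not tested.

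The share of far distal peaks in clusters did the same. HIF-2α libraries were higher by 3.49 points in A549 and 2.43 points in T47D, and the difference was -4.11 points in HCT116 and -2.35 points in PC3, with no overlap between isoforms in any of the 4 cell lines. This was not tested either, and 2 libraries per group leave few ways for values to be ordered.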

How the results depend on the processing

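The difference between isoforms in lncRNA starts kept its direction and its call under all 24 alternatives, and the far distal share under 28 of 29. Without HCT116 every call but that for lncRNA starts was lost (adjusted p of 0.05078, or 0.1324 for RCGTG by isoform), at 20.33 points for the far distal share, -8.012 for RCGTG by isoform, -7.701 for score rank, -14.86 for replicate recovery, -29.55 for sharing, -14.77 and 7.405 for RCGTG and AP-1 against other peaks, -6.93 for CpG count and -169.5 bp for width, and clustering turned to 1.188. The unadjusted p-values there were 0.009259 for the far distal share and 0.03125 for each sign-flip test (exact permutation). These are the smallest that such tests can give with a cell line left out. They were the same without A549, PC3 or T47D, where these calls passed. With a score at or above the median of all peaks (74.57) the within-gene share was 13.15, RCGTG by isoform -2.142, AP-1 by isoform 11.19, clustering 5.562, score rank -1.172, its difference by isoform -1.211 and recovery -0.8429. There the within-gene share and AP-1 by isoform passed, and RCGTG by isoform, score rank and recovery lost their calls. With 272 best-scoring peaks per library the within-gene share was 16.41 and clustering -10.74, which both passed, and the calls were lost for score rank (-3.713), recovery (-2.641), sharing (-15.93) and RCGTG against other peaks (-4.136), while the rank difference by isoform was -1.736. In peaks found in both replicates the within-gene share was 9.701, AP-1 by isoform 5.905, score rank -1.053, its difference by isoform -4.241 and RCGTG against other peaks -3.345. Without PC3 the within-gene share was 4.854, RCGTG by isoform -6.054, AP-1 by isoform 10.32 and clustering 0.6017. The within-gene share and AP-1 by isoform passed there, and RCGTG by isoform lost its call. In the central 500 bp RCGTG by isoform was -7.322, which lost its call, and AP-1 by isoform was 10.86, which passed. Clustering was -1.834 at the shorter gap, and the share within genes of all types -1.742. A threshold of 100,000 bp left 1332 sites, and starts of all gene types 462. The causes of these changes were not tested, except that fewer sites meet a stricter distance by construction.

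Leaving out each library in turn, RCGTG by isoform ran from -10.7 to -5.483, AP-1 by isoform from 6.34 to 10.44, clustering from -0.664 to 0.3898, the far distal share from 17.72 to 20.69 and the within-gene share from 2.114 to 3.747. The call for RCGTG by isoform was lost without A549 HIF-1α replicate 3, A549 HIF-2α replicate 2, HCT116 HIF-2α replicate 3, PC3 HIF-1α replicate 2, either PC3 HIF-2α replicate, T47D HIF-1α replicate 1 or either T47D HIF-2α replicate. AP-1 by isoform passed without HCT116 HIF-1α replicate 2, HCT116 HIF-2α replicate 2, PC3 HIF-1α replicate 2 or PC3 HIF-2α replicate 1. Site by site, same-numbered libraries did not deviate together (correlations of 0.0364, 0.0140, 0.0287 and -0.00446 over sites in A549, HCT116, PC3 and T47D), so the replicate numbers were not taken to pair them. These correlations do not cover values per library. In PC3 the AP-1 share of far distal peaks did move with replicate number, from 15.6 and 16.8% in replicate 1 to 29.3 and 33.2% in replicate 2. With the replicate number as a block, RCGTG by isoform at -8.091 points lost its call (adjusted p = 0.0813, exact permutation) and AP-1 by isoform at 8.39 points gained one (adjusted p = 0.0226, exact permutation), and no other call changed. Read depth is unknown, and list lengths from 275 to 4505 peaks limit what the shorter lists can show.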

Other observations

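A joined form of both motifs was counted after the data were seen. In it the last letters of TGANTCA, CA, are also the first letters of the HIF core as read on the opposite strand, CACGC or CACGT. In whole sites the joined form was in 39 far distal sites (1.75%) and in 1.68% of the other sites. Among sites with peaks in 8 or more libraries it was in 6 of 32 far distal sites (18.75%) and in 9 of 282 other sites (3.19%). Of the 10 far distal sites with the most libraries, those nearest ARRDC3, EGLN3 and AC092291.2 held it. These are few sites of unequal width, chosen in view of the values, and no test was made.

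Both motifs, joined or apart, were in the central 200 bp of 163 far distal sites (7.31%) and 355 other sites (3.76%). Among far distal sites the share ran from 4.72% of those in 1 library to 12.9% in 2 to 3, 17.6% in 4 to 7 and 21.9% in 8 or more, while the other sites stayed between 3.465 and 5.225%.

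T47D had 0 of its 380 far distal sites on chromosome X, where A549 had 11 of 606, HCT116 5 of 926 and PC3 14 of 677. Chromosome X held only 24 of the 2229 far distal sites. The other sites were not counted by chromosome, so this cannot be called a trait of far distal sites. No test was made.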
